A study of Bos taurus with 16 samples.

Results

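The corpora lutea of 12 pregnant Japanese Black cows were compared as 1 group with those of 4 cyclic cows of the same breed, on all 16 arrays of the series. Every array carried the total RNA of 1 animal, labelled with Cy3. The cyclic glands were taken on days 10-12 of the estrous cycle, and the pregnant ones on days 20-25, 40-45 and 150-160 of gestation, with 4 cows per stage and insemination on day 1. The 3 stages were given equal weight, so the pooled log2 change is the mean of the 3 stage changes, and the slide was kept as a block. A probe that passed this comparison was said to shift alike when its 3 stage changes had 1 sign and the smallest was at least 0.5 of the largest. That rule separates genes with a like change at every stage from genes whose change differs from stage to stage.

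The corpus luteum is the temporary gland that the ovulated follicle leaves behind, and its steroidogenic cells make the progesterone on which gestation depends. In a cycle without conception prostaglandin F2 alpha from the uterus brings the gland to regress, while an embryo prevents this and the gland persists. Endothelial cells, fibroblasts, pericytes and leukocytes make up the rest of the tissue, so a bulk measurement mixes all of them.

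The tissue carried the markers of luteal steroidogenic cells. STAR, which brings cholesterol into mitochondria, CYP11A1, which cleaves its side chain, and HSD3B1, which makes progesterone, lay at or above the 99.8th percentile of all probes on every array with a value. LHCGR, the luteinizing hormone receptor, lay between the 49.8th and the 72.4th. None of the 4 passed in the pooled comparison: the log2 changes were 0.22 (adjusted p = 0.41), 0.10 (adjusted p = 0.55), 0.24 (adjusted p = 0.25) and -0.59 (adjusted p = 0.327). STAR had no value in cyclic replicate 4, and CYP11A1 had 11 pregnant values. STAR depended on single cows: its change was 0.53 without cyclic replicate 3 (adjusted p = 0.0386) and -0.32 within slide 2 alone. That of LHCGR was -0.19 without cyclic replicate 1.

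Across arrays the 75th percentile of the signal ranged from 2020.5 to 4288.4, and between 71.9% and 79.6% of probes exceeded background clearly. Each of the 2 slides held 2 arrays of every group, but each group kept its own positions on the slides, and effects of position and of pregnancy cannot be told apart. The pregnant glands were also older than the cyclic ones, so neither can pregnancy and the age of the gland. Replicate 4 of days 20-25 stood apart on the second principal component, at -77.4 against -15.3 to 24.7 for the other arrays. With 4 cyclic cows, every value below leans on few animals.

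A probe is a 60-base stretch of a transcript fixed to the array, and what was measured is the RNA that pairs with it. HP, IGFBP6 and SLC26A10, whose rises separated all 12 pregnant cows from all 4 cyclic ones, were read by the probes below, written 5′ to 3′ as in the array files.
HP: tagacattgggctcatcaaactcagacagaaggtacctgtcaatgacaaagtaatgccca
IGFBP6: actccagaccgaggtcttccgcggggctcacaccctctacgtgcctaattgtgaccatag
SLC26A10: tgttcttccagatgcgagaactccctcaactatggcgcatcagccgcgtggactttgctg

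Among the falls were members of a family of related genes, and 2 of their probes show how alike the probe sequences are. The capitals mark the longest run that the probes of the beta-defensins BNBD-5 and DEFB4A have in common, 19 bases.
BNBD-5: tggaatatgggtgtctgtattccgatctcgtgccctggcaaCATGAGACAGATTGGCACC
DEFB4A: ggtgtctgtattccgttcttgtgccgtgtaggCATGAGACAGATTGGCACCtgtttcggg
In the best ungapped alignment 44 of 51 bases were identical, so RNA of one defensin could also be read by the probe of the other.

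Pregnant glands held more RNA of HP, SOCS2, IGFBP6, FGF1 and the prolactin receptor than cyclic glands, and less of the lipid-modifying enzyme PLAAT1, the chemokine XCL1, the defensin BNBD-5 and the immunoglobulin joining chain. In the pooled comparison limma called 831 of 11940 probes, which is 6.96%, at an adjusted p under 0.05. Of these 518 (4.34%) were higher and 313 (2.62%) lower in pregnancy, and 263 differed at least 2-fold. Leaving out cyclic replicate 4 reduced the number to 306, leaving out cyclic replicate 2 to 445, and leaving out replicate 1 of days 40-45 to 543. Without the array that stood apart it was 938. Treating the 12 pregnancy arrays as 1 group, so that differences between stages count as spread, left 476. In bulk tissue fewer cells of a type and less RNA per cell cannot be told apart, and this holds for every change below.

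Of the called probes 481, or 4.03% of all tested, shifted alike, 326 higher (2.73%) and 155 lower (1.3%). For 6 of the higher ones no cyclic array, and for 6 of the lower ones no pregnant array, was well above background, so that the likeness of their stage changes is not measured. A gene symbol was at hand for 130 of the higher and 85 of the lower ones. All 12 pregnant cows lay above all 4 cyclic cows at 99 of the probes that shifted alike, and below them at 42. Over all probes tested the groups lay apart in this way at 180 (1.51%), above at 120 (1.01%) and below at 60 (0.503%). A call at each of the 3 stages on its own was made for 31 probes, 22 higher and 9 lower. Close to the limit of the rule, KCND1 and CD83 had a ratio of smallest to largest stage change of 0.501 and fell inside, while TTC38 at 0.499 fell outside.

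HP encodes haptoglobin, the plasma protein that captures free haemoglobin. Its log2 signal, relative to the array's 75th percentile as all levels here, was -6.46, -5.72, -5.57 and -3.13 in the cyclic cows. In the pregnant cows it ran from -3.09 through a median of -2.34 to -0.12. The highest cyclic value lay just under the lowest pregnant one, and the groups did not overlap. The pooled change was 3.05 (SE 0.49, adjusted p = 0.00473), an 8.3-fold difference, made of 2.86, 2.78 and 3.52 at the successive stages. It was 3.66 within slide 1 and 2.45 within slide 2.

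SOCS2, a suppressor of cytokine and growth hormone signalling, measured 0.21, 0.04, -0.10 and -0.50 in the cyclic cows and 0.61, 1.57 and 2.10 as the lowest, median and highest of the pregnant cows. No pregnant cow fell in the cyclic range. The change of 1.61 (SE 0.17, adjusted p = 0.000275) was 1.37, 1.66 and 1.80 by stage. CISH, a related suppressor, rose by 1.14 (adjusted p = 0.0445), but its call was lost without any 1 of 14 arrays, among them cyclic replicates 2 (adjusted p = 0.137) and 4 (adjusted p = 0.163).

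PRLR, the receptor of prolactin and placental lactogen, rose by 2.21 (SE 0.43, adjusted p = 0.0109). The cyclic cows on slide 1 lay at -2.06 and -2.30 and those on slide 2 at 1.03 and 0.20, while the pregnant cows ranged from 0.16 to 2.15 with a median of 1.5. Both cyclic cows of slide 2 lay within the pregnant range and both of slide 1 below it. On slide 1 alone the change was 3.60 and on slide 2 alone 0.82, and the part of the slide in it was not tested. Of 26 tested cytokines, receptors and signalling genes SOCS2 and CISH were the 2 called higher and IL1RN, the interleukin-1 receptor antagonist, the 1 called lower, beside 4.34% higher and 2.62% lower among all probes. The list median was -0.10, with 16 negative changes.

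**Figure D1:**
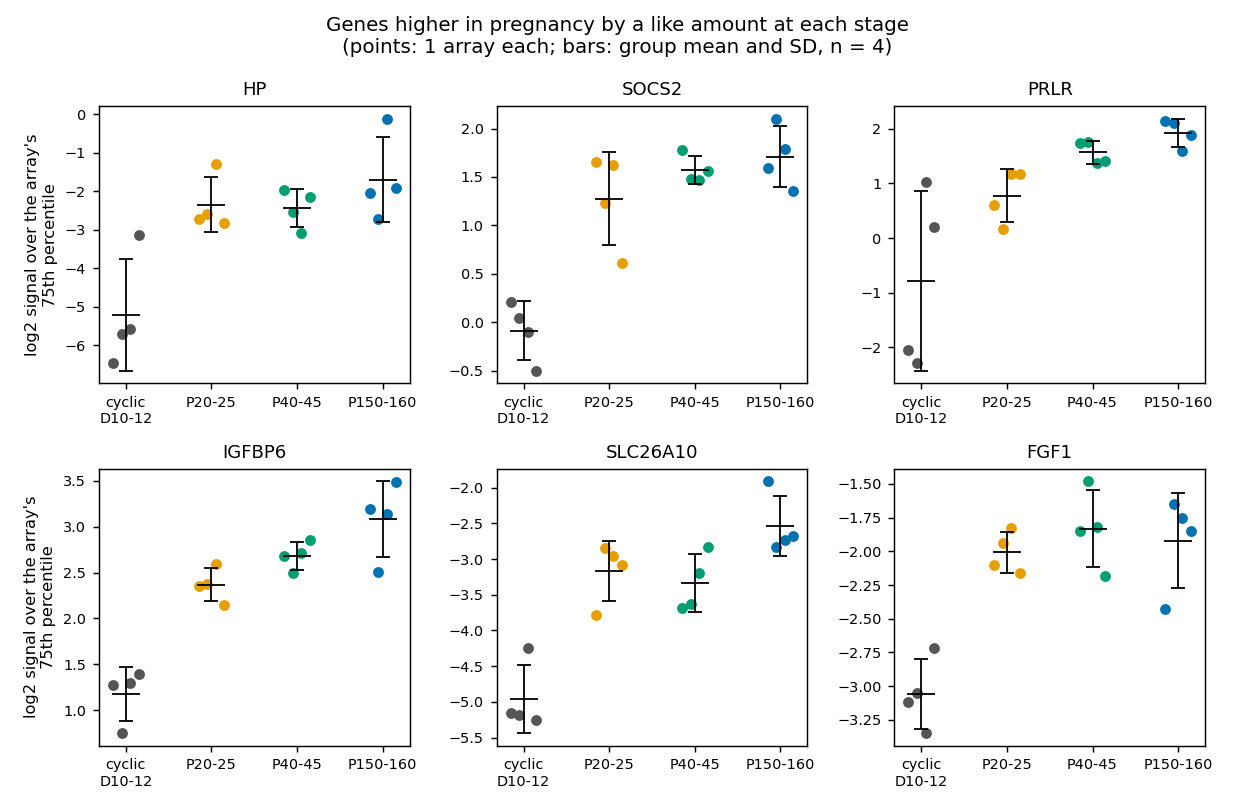
Log2 signal over the array's 75th percentile (vertical axes, each panel on its own scale) for 6 genes that rose by a like amount at each stage, in cyclic cows and the 3 pregnancy stages. Points are single arrays and bars the mean and SD of 4. The 12 pregnant cows lie above all 4 cyclic cows for HP, SOCS2, IGFBP6, SLC26A10 and FGF1, while for PRLR the cyclic cows split into a pair at -2.06 and -2.30 and a pair at 0.20 and 1.03.

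Among growth factors and their binding proteins, IGFBP6 and FGF1 rose while IGFBP5 and IGF2 fell. IGFBP6, which binds insulin-like growth factor II with preference, measured 1.27, 0.75, 1.30 and 1.40 in the cyclic cows and ran from 2.15 through 2.64 to 3.49 in pregnancy. Every pregnant cow was above every cyclic cow. Its change of 1.53 (SE 0.14, adjusted p = 0.000113) was nearly equal on both slides, 1.59 and 1.48, and passed at each stage on its own. FGF1, an angiogenic fibroblast growth factor, went from -3.12, -3.05, -3.35 and -2.72 in the cyclic cows to between -2.43 and -1.48 in pregnancy, with a median of -1.85. The groups were separate, and the change was 1.14 (SE 0.16, adjusted p = 0.00247), or 1.05, 1.23 and 1.14 by stage.

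IGFBP5, another binding protein, fell by 1.72 (SE 0.33, adjusted p = 0.0111), from -1.82, 0.26, -0.10 and -0.45 to a median of -2.24 with a range of -3.53 to -0.93. Cyclic replicate 1 lay within the pregnant range. IGF2, the ligand, and MEST, an imprinted gene listed with it, fell by 1.27 (adjusted p = 0.0109) and 1.66 (adjusted p = 0.019), but not alike: the stage changes of MEST were -0.11, -1.72 and -3.14. The second MEST probe gave -0.75 (adjusted p = 0.135), and the call of the first was lost without cyclic replicate 1 (adjusted p = 0.0573) or 2 (adjusted p = 0.072). In all, 1 of 13 tested genes of the insulin-like growth factor system was called higher and 3 were called lower. Among all probes 4.34% were called higher and 2.62% lower. The median change was -0.08 for the list against 0.03 over all probes.

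GJA5, the arterial gap junction protein connexin 40, rose by 1.61 (SE 0.26, adjusted p = 0.0049) and reached 0.27 to 1.68 in pregnancy against 0.03, -0.34, -0.38 and -1.54 in the cyclic cows. ENG, a co-receptor for transforming growth factor beta on endothelium, rose by 0.90 (adjusted p = 0.0186), and FLT1, a receptor for vascular endothelial growth factor, by 1.16 (adjusted p = 0.0251). ERG, an endothelial transcription factor, rose by 0.33 (adjusted p = 0.0466), not alike. SELE, the leukocyte adhesion molecule E-selectin, fell by 2.89 (adjusted p = 0.0273). The size of this fall depended on dim values: it was 1.47 with values under background raised to it (adjusted p = 0.0337). With another background correction it was 0.78 and did not pass (adjusted p = 0.105). In all, 3 of 21 tested endothelial markers were called higher and 1 lower, beside 4.34% and 2.62% among all probes, and 0 were called within either slide. Their median was 0.22, with 16 positive changes, and CDH5 and PECAM1, which define endothelium, changed by 0.17 and 0.22 without passing. None of the 4 called markers held through every omission of 1 array: without cyclic replicate 2 the adjusted p was 0.0663 for ENG, 0.0829 for FLT1, 0.129 for ERG and 0.0969 for SELE. With cyclic replicate 4 left out it was 0.0783 for ENG, 0.127 for ERG and 0.114 for SELE. FLT1 was also at 0.0581 on omitting cyclic replicate 1, and SELE at 0.0612 on omitting cyclic replicate 3. Cyclic replicate 1 of SELE, at -9.39, was as low as any pregnant cow.

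Of 12 tested smooth muscle and pericyte genes 2 were called, both higher and alike, beside 4.34% higher and 2.73% alike higher among all probes. LMCD1, a LIM domain protein, rose by 1.67 (SE 0.25, adjusted p = 0.0037), with all pregnant cows between 0.46 and 1.81 and cyclic cows at -0.28, 0.18, -0.69 and -1.20. MYL9, a myosin light chain, rose by 0.60 (adjusted p = 0.0204), a call lost without cyclic replicate 1 (adjusted p = 0.0622) or 4 (adjusted p = 0.0566). The median of the list was 0.00.

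Transcription factors, transporters and enzymes completed the separated rises. ZBTB16, a zinc finger transcription factor, rose 5.55-fold, by 2.47 (SE 0.34, adjusted p = 0.00229), from -5.27, -6.33, -4.60 and -4.34 to a median of -2.58. No pregnant cow was below -3.82. SLC26A10, of a family of anion transporters, measured -5.16, -5.19, -4.25 and -5.25 in the cyclic cows and -3.79, -2.90 and -1.91 as lowest, median and highest in pregnancy. It rose by 1.95 (SE 0.23, adjusted p = 0.000645), by 2.06 on slide 1 and 1.83 on slide 2. HLF, a transcription factor of the PAR leucine zipper family, rose by 1.5 (adjusted p = 0.00242), and MIC1 by 2.02 (adjusted p = 0.00673).

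Smaller rises were also among those named on the condition that the groups did not overlap. NPR2, the receptor of C-type natriuretic peptide, rose by 0.72 (SE 0.10, adjusted p = 0.00247), from -2.11, -2.38, -1.97 and -2.20 to between -1.80 and -1.11. HEMK1, a methyltransferase, rose by 0.74 (adjusted p = 0.00524), or 0.77, 0.75 and 0.71 by stage. ACSS1, the mitochondrial acetyl-CoA synthetase, rose by 0.91 (adjusted p = 0.00344). The calls of NPR2, HEMK1 and ACSS1 held without any 1 array.

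PLAAT1, an enzyme that cleaves phospholipids and transfers their acyl chains, fell by a like amount at every stage. The cyclic cows lay at -2.44, -1.90, -4.72 and -1.47, and the pregnant cows ran from -7.99 through -6.25 to -5.19. All pregnant cows were below all cyclic ones, and on 8 of the 12 pregnant arrays the probe was well above background. The change was -3.64 (SE 0.57, adjusted p = 0.00456), a 12.5-fold difference, with stage changes of -3.66, -3.67 and -3.58. The slides gave -3.81 and -3.46, and the call held without any 1 array.

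Some antimicrobial peptides of granulocytes fell. CATHL4, a cathelicidin, measured -5.48, -4.90, -6.45 and -4.50 in the cyclic cows and between -9.42 and -8.44 in pregnancy, with a median of -8.75, on no array well above background. It was at least 2.5-fold lower. Here and below such a bound sets the cyclic mean against, on each pregnant array, the lowest signal well above background or the probe's own where that was higher. Raised to background where below it, its values differed by -1.32 (adjusted p = 0.0141). BNBD-5 fell by 2.49 (SE 0.26, adjusted p = 0.000249), from -3.93, -3.47, -5.50 and -4.71 to a median of -6.92, and 4 of the 12 pregnant arrays were well above background. The groups did not overlap for either gene.

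CATHL1 was at least 2.27-fold lower (adjusted p = 0.00344), with the lowest cyclic cow, at -6.84, just under the highest pregnant one, at -6.76. DEFB4A was at least 2.42-fold lower (adjusted p = 0.00588), and CATHL3 was called lower (adjusted p = 0.00344) with no bound above 1. On the pregnant arrays CATHL3 and DEFB4A had the same lowest, median and highest values, -9.42, -8.92 and -8.50, the floor of the processed signal, so their pregnant values hold no measured level. With values under background raised to it, CATHL4 and CATHL1 passed (adjusted p = 0.0141 and 0.0412) and CATHL3 and DEFB4A did not (adjusted p = 0.377 and 0.0964). Cathelicidins share a conserved precursor region, and the 2 defensin probes above were identical at 44 of 51 aligned bases. The members are therefore not taken as fully separate measurements, though reading of one by the probe of another was not tested.

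In all, 5 of 16 tested granulocyte markers were called lower and 0 higher, beside 2.62% lower among all probes. Of the 5, BNBD-5 alone was well above background on any pregnant array, the other 4 passed the filter through the cyclic cows, and 3 were called with values raised to background. At an unadjusted p under 0.05 limma had 8 lower and 0 higher, beside 9.05% lower and 14.2% higher among all probes. The list median was -0.80, with stage medians of -0.88, -1.05 and -0.58. The mean level over the 16 markers ran from -4.80 to -3.50 in the cyclic cows and from -5.58 to -4.51 in the pregnant ones. Among the members that did not pass, the cathelicidins CATHL2, CATHL5 and CATHL6 changed by -0.81, -1.07 and -0.20, and PGLYRP1, a peptidoglycan receptor, by -1.58. S100A8 and MMP9, which mark neutrophils, changed by 0.00 and -0.38 and LTF, lactoferrin, by -0.78. ITGAM, FCGR3A and CHI3L1, the 3 members with a positive change, were at 1.27, 0.51 and 0.44 and did not pass either. The count of calls stayed at 5 or 6 when any 1 array was left out. For the 4 without a pregnant array well above background, such omissions could not measure the pregnant level. Within slide 1 the count was 4, and within slide 2, where the median was -0.77, it was 0.

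**Figure D2:**
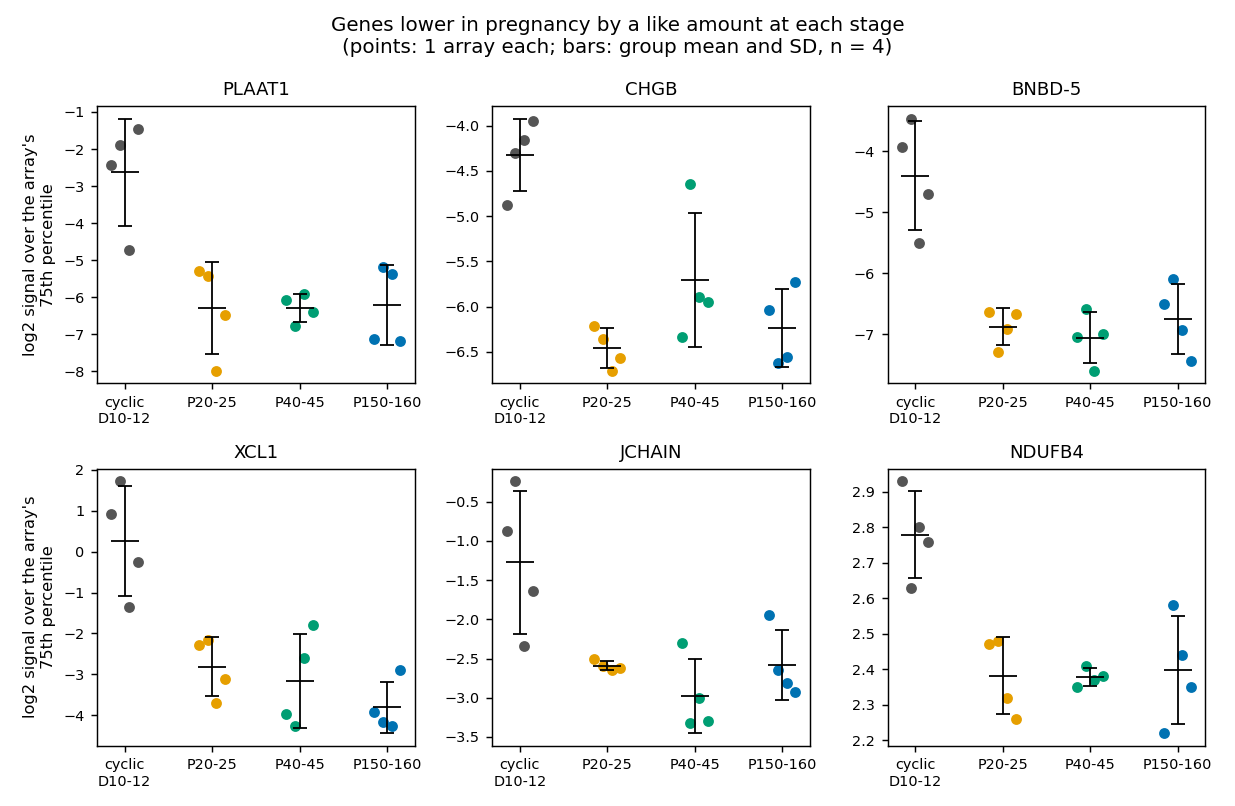
Log2 signal over the array's 75th percentile (vertical axes, each panel on its own scale) for 6 genes that fell by a like amount at each stage. Points are single arrays and bars the mean and SD of 4; 8 of the 12 pregnant values of BNBD-5 were not well above background. The 12 pregnant cows lie below all 4 cyclic cows for PLAAT1, BNBD-5, XCL1 and NDUFB4, while 1 cyclic cow lies within their range for JCHAIN, at -2.34, and for CHGB, at -4.88.

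JCHAIN, which joins immunoglobulin polymers, measured -0.87, -0.24, -2.34 and -1.64 in the cyclic cows and -3.32, -2.64 and -1.94 as lowest, median and highest in pregnancy. Cyclic replicate 3 was inside the pregnant range. The change was -1.44 (SE 0.25, adjusted p = 0.00631), and it was -2.0 within slide 1 and -0.89 within slide 2. The heavy chains IGG1C and IGHM fell by 2.28 (adjusted p = 0.0134) and 0.89 (adjusted p = 0.0406), calls that were lost without cyclic replicate 4 (adjusted p = 0.0598 and 0.139). The call of IGHM was also lost without cyclic replicate 1 (adjusted p = 0.103) or 2 (adjusted p = 0.0942) and with some pregnant arrays left out. These 3 were the called members among 8 tested B and plasma cell markers, all lower, beside 2.62% among all probes. The count was 1 without cyclic replicate 4 and 0 within either slide. Of the other members CD38 changed by -1.26 (adjusted p = 0.113), BLK by -0.16, SDC1 by 0.05, CD79A by 0.19 and XBP1 by 0.33. The mean level over the list lay between -3.03 and -1.88 in cyclic cows and between -3.61 and -2.51 in pregnant cows.

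XCL1, the chemokine lymphotactin of T and natural killer cells, fell 11.5-fold. It measured 0.91, 1.72, -1.35 and -0.25 in the cyclic cows and -4.27, -3.40 and -1.80 as lowest, median and highest in pregnancy, with no overlap. The change was -3.52 (SE 0.55, adjusted p = 0.00398), or -4.77 within slide 1 and -2.27 within slide 2. Of 17 tested T and natural killer cell markers limma called 0. At an unadjusted p under 0.05 it had 1 higher and 0 lower, beside 14.2% higher and 9.05% lower among all probes. CD3E and NKG7 changed by 0.02 each. Among macrophage markers 2 of 16 were called, both lower and neither alike, beside 2.62% lower among all probes. CD68 fell by 1.22 (adjusted p = 0.00461) and FCGR1A by 1.16 (adjusted p = 0.0164). The call of FCGR1A was lost without cyclic replicate 2 (adjusted p = 0.0589) or 4 (adjusted p = 0.0644). A negative change was measured for 14 macrophage markers, and the list median was -0.37. The other 2 were FCGR2B, whose 1.31 was the largest change of the list in size (adjusted p = 0.0831), and LYVE1 at 0.06. Without cyclic replicate 2, 1 macrophage marker was called higher and 1 lower, beside 293 and 152 of 11940 probes. The part of leukocyte numbers in the falls of XCL1, the antimicrobial peptides and the immunoglobulin chains was not tested.

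In the interleukin-1 system IL1RN fell by 2.45 (adjusted p = 0.0439), a value that rested on cyclic replicate 4 at 1.74, without which it was -1.44 (adjusted p = 0.13). It was -2.14 without cyclic replicate 2 (adjusted p = 0.128), and the call was lost without several pregnant arrays too. IL1A, IL1B and IL1R2 did not pass, at -2.46, -1.69 and -1.65, nor did IL1R1 at 0.27. IL1RAP, the accessory chain of the interleukin-1 receptor, fell by 1.12 (SE 0.23, adjusted p = 0.0137), or -1.08, -1.18 and -1.12 by stage, and did not pass without cyclic replicate 2 (adjusted p = 0.0524). CHGB, chromogranin B of secretory granules, fell by 1.81 (SE 0.27, adjusted p = 0.00344) from -4.88, -4.30, -4.16 and -3.95 to a median of -6.27. The highest pregnant cow, at -4.64, was above cyclic replicate 1. NPTX2, a neuronal pentraxin, fell by 5.18 (SE 0.89, adjusted p = 0.00655), with stage changes of -3.21, -6.25 and -6.07, and on 5 of 12 pregnant arrays its signal was well above background. With OXT they were the 3 called lower of 20 tested peptide hormone genes, of which PRLR and PENK were the 2 called higher. Among all probes 2.62% were called lower and 4.34% higher. The secretory granule genes SCG2, PCSK1, CPE and PAM did not pass, at -1.21, -1.08, -0.63 and -0.51.

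Small falls were measured among subunits of the respiratory chain and of ATP synthase. Of 72 tested 66 had a negative change, and the median was -0.21, with stage medians of -0.18, -0.17 and -0.29. Of the 72, 11 were called lower and 0 higher, and 9 of the 11 shifted alike. Among all probes 2.62% were called lower, and 1.3% were lower and alike. NDUFB4, a subunit of complex I, measured 2.93, 2.63, 2.80 and 2.76 in the cyclic cows and ran from 2.22 to 2.58 in pregnancy, with a median of 2.38. All pregnant cows were below all cyclic ones, and the change was -0.40 (SE 0.09, adjusted p = 0.0183), with stage changes of -0.40, -0.40 and -0.38. UQCR11 of complex III fell by 0.48 (adjusted p = 0.0167), NDUFA3 by 0.48 (adjusted p = 0.0183), and ATP5ME of the ATP synthase by 0.36 (adjusted p = 0.0247). Without cyclic replicate 4 none of the 4 passed (adjusted p = 0.0605 to 0.0822).

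The count of these calls depended on single cyclic cows. It was 0 without cyclic replicate 4, 1 without replicate 1, 3 without replicate 3 and 10 without replicate 2, 5 without replicate 1 or 3 of days 40-45, and 0 within either slide, whereas the median was -0.16 to -0.27 with any 1 array left out and -0.22 and -0.19 within the slides. At an unadjusted p under 0.05 limma had 25 of 72 lower and 0 higher, beside 9.05% lower and 14.2% higher among all probes. Cytosolic ribosomal proteins, taken as steadily expressed genes, had a median of -0.07 and 39 negative changes, with 0 of 50 called, and 1 higher and 1 lower at an unadjusted p under 0.05. COX16, an assembly factor of complex IV outside the list, fell by 0.41 (adjusted p = 0.0163), or -0.41 on each slide, and did not pass without cyclic replicate 4 (adjusted p = 0.0657).

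**Figure D3:**
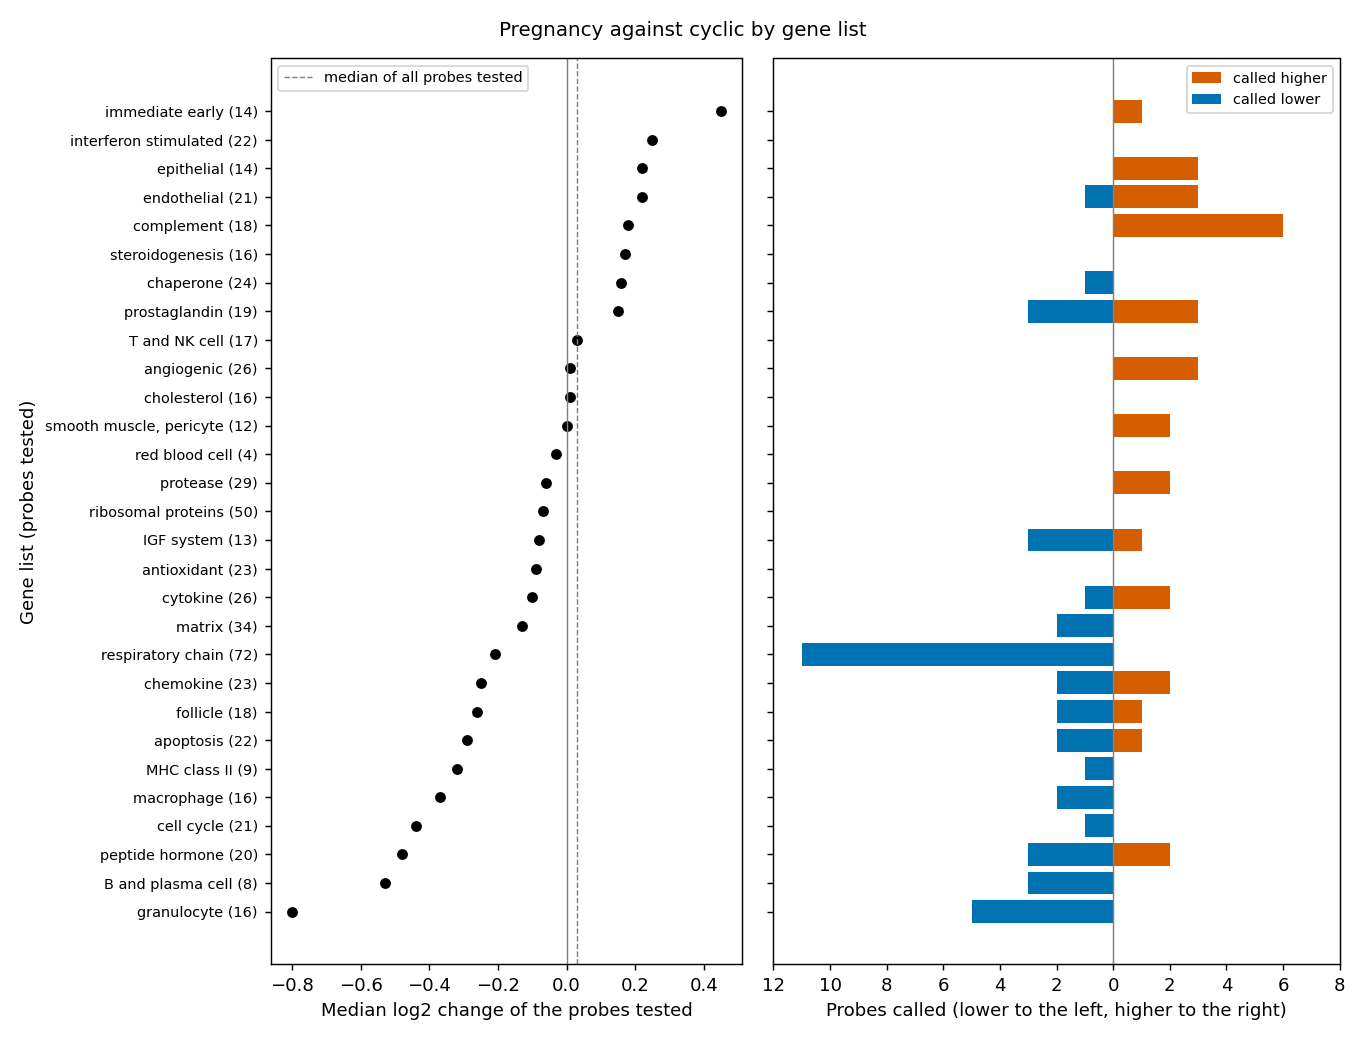
Median log2 change of pregnancy against cyclic (left, with the median over all 11940 probes as a dashed line) and number of probes called higher or lower (right) for 29 gene lists, ordered by median. Granulocyte markers have the lowest median, -0.80 with 5 called lower, respiratory chain subunits the most calls, 11 lower, and complement genes the most higher calls, 6.

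Complement genes had the most higher calls of any list, 6 of 18 tested, with 0 lower, beside 4.34% higher among all probes. Within either slide 0 were called. C1R, a protease of the first component, rose by 0.87 (SE 0.15, adjusted p = 0.00673), from 0.84, 0.72, 0.68 and 0.75 to between 0.74 and 2.44. CD59, which blocks the lytic complex, rose by 0.79 (adjusted p = 0.0113), and C7, a component of that complex, by 1.33 (adjusted p = 0.0248). C1S and SERPING1, a protease and its inhibitor, are named after their values were seen, and rose by 0.64 (adjusted p = 0.0421) and 0.84 (adjusted p = 0.0476). The 6 include proteases, a lytic component and inhibitors, and of them C7 alone shifted alike. C3, the central component, changed by 0.12. The list median was 0.18, and the count of higher calls ran from 2 to 5 with any 1 array left out, at 2 without cyclic replicate 4 and at 3 on leaving out cyclic replicate 1, replicate 1 or 3 of days 20-25, replicate 1 of days 40-45 or replicate 2 of days 150-160. Without cyclic replicate 1 the adjusted p was 0.0677 for C7 and 0.129 for SERPING1. Without cyclic replicate 4 it was 0.0788 for C7, and without cyclic replicate 3 it was 0.123 for C1S.

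Prostaglandin genes changed in both directions, with 3 called higher and 3 lower of 19, beside 4.34% and 2.62% among all probes. SLCO2A1, which carries prostaglandins across membranes, rose alike by 1.09 (SE 0.21, adjusted p = 0.0113), from -1.31, -2.29, -0.90 and -1.58 to between -0.97 and 0.31. The lowest pregnant cow fell below cyclic replicate 3. TBXA2R, the thromboxane receptor, named after its values were seen, rose by 0.40 (adjusted p = 0.0369), which became 0.104 without cyclic replicate 1, and PTGER3, described below, was the other called higher. AKR1B1, a reductase able to make prostaglandin F2 alpha, fell by 0.60 (adjusted p = 0.0226) and PLA2G4A, which frees arachidonic acid, by 0.80 (adjusted p = 0.0237), neither alike. The call of AKR1B1 was lost without any 1 of the 4 cyclic arrays (adjusted p = 0.0506 to 0.0633), and that of PLA2G4A with values under background raised to it (adjusted p = 0.834). It was lost as well when cyclic replicate 1 or 4 was left out, at an adjusted p of 0.0729 and 0.0972. PTGS2, the inducible cyclooxygenase, named after its values were seen, fell by 2.14 (adjusted p = 0.0488), which became 0.189 without cyclic replicate 4 and 0.168 with values raised to background, above which it lay well on 2 of 12 pregnant arrays. PTGFR, the receptor through which prostaglandin F2 alpha acts on the gland, changed by 0.41 (adjusted p = 0.149), with -0.06 within slide 2, and by 0.61 without cyclic replicate 3 (adjusted p = 0.0299).

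Some groups had no call. For steroidogenesis 0 of 16 were called. At an unadjusted p under 0.05 limma had 1 higher and 2 lower, beside 14.2% higher and 9.05% lower among all probes. FDX1, the electron donor of CYP11A1, changed by 0.67 (adjusted p = 0.0531), which became 0.0114 without replicate 1 of days 150-160. Interferon-stimulated genes had 0 of 22 called and 6 higher at an unadjusted p under 0.05 in limma, beside 14.2% higher among all probes. A positive change was measured for 19 of them, with a median of 0.25. The stage medians were 0.79, 0.09 and -0.05, and those within the slides 0.69 and -0.20. Cholesterol genes had 0 of 16 called, none at an unadjusted p under 0.05 either, and a median of 0.01.

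The stages were unlike in how much of the pooled shift they held. Against the same 4 cyclic cows limma called 78 probes (0.653%) on days 20-25, 211 (1.77%) on days 40-45 and 1185 (9.92%) on days 150-160; the 3 comparisons share these cows and are not independent. Among the 518 probes called higher the change was largest on days 150-160 for 332 and on days 20-25 for 121, with medians of 0.66, 0.63 and 0.86 by stage. The 313 called lower had stage medians of -0.50, -0.86 and -0.98, and for 244 of them the smallest change was on days 20-25. A further 132 probes passed in the pooled comparison though no stage passed alone, 96 higher and 36 lower. Within pregnancy, with no cyclic cow in the contrast, an F test over the 3 stages called 114 probes (0.955%), and 50 of the 831.

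Some of the largest pooled changes belonged to genes whose change differed between stages. CCL11, an eosinophil chemokine, had no cyclic array on which it was well above background, and the 12 pregnant cows ran from -9.15 through -2.01 to 3.11. Its mean level was -6.07 ± 2.21, -1.42 ± 1.68 and 2.33 ± 0.56 (SD, n = 4) at the successive stages, with an adjusted p of 0.00337 in limma's F test between them. The pooled level was at least 36.8-fold higher than in the cyclic cows. PTGER3, the EP3 receptor of prostaglandin E2, changed by 1.89, 5.11 and 6.44, a pooled rise of 4.48 (SE 0.38, adjusted p = 5.65e-05). CLDN10, a tight junction protein, was well above background on 0 cyclic arrays and on 0, 2 and 4 arrays of the successive stages, and its pooled level was at least 1.53-fold higher.

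OXT, the oxytocin precursor made by luteal cells of cattle, measured 6.47, 5.64, 5.04 and 6.03 in the cyclic cows and ran from -3.03 through 1.93 to 5.35 in pregnancy. The highest pregnant value lay above cyclic replicate 3, so the ranges overlapped. The stage changes were -0.77, -4.05 and -7.97, with an adjusted p of the F test of 2.39e-05. The pooled fall was 4.26 (adjusted p = 6.11e-05). With the 12 arrays as 1 group OXT did not pass (adjusted p = 0.121), nor did 19 other named genes with a pooled call, among them CLDN10 (0.117), MEST (0.197), FN1 (0.156), IGF2 (0.069), PLA2G4A (0.175), AKR1B1 (0.0672), ERG (0.168), CISH (0.0585), C1R (0.055) and CD59 (0.0549). FN1, the matrix protein fibronectin, fell by 1.00 (adjusted p = 0.013), with -0.35, -0.70 and -1.95 by stage, and its other probe gave -1.09 (adjusted p = 0.0269). AURKB, a mitotic kinase, fell by 1.69 (adjusted p = 0.00275), with -0.80, -1.83 and -2.44 by stage. It was the 1 called of 21 cell cycle genes, beside 2.62% called lower among all probes. Of the 21, 19 had a negative change, beside 5522 of 11940 among all probes. The median of these cell cycle genes was -0.44, or -0.06, -0.41 and -0.86 by stage. It was -0.93 within slide 1, 0.04 within slide 2 and -0.13 without cyclic replicate 1.

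**Figure D4:**
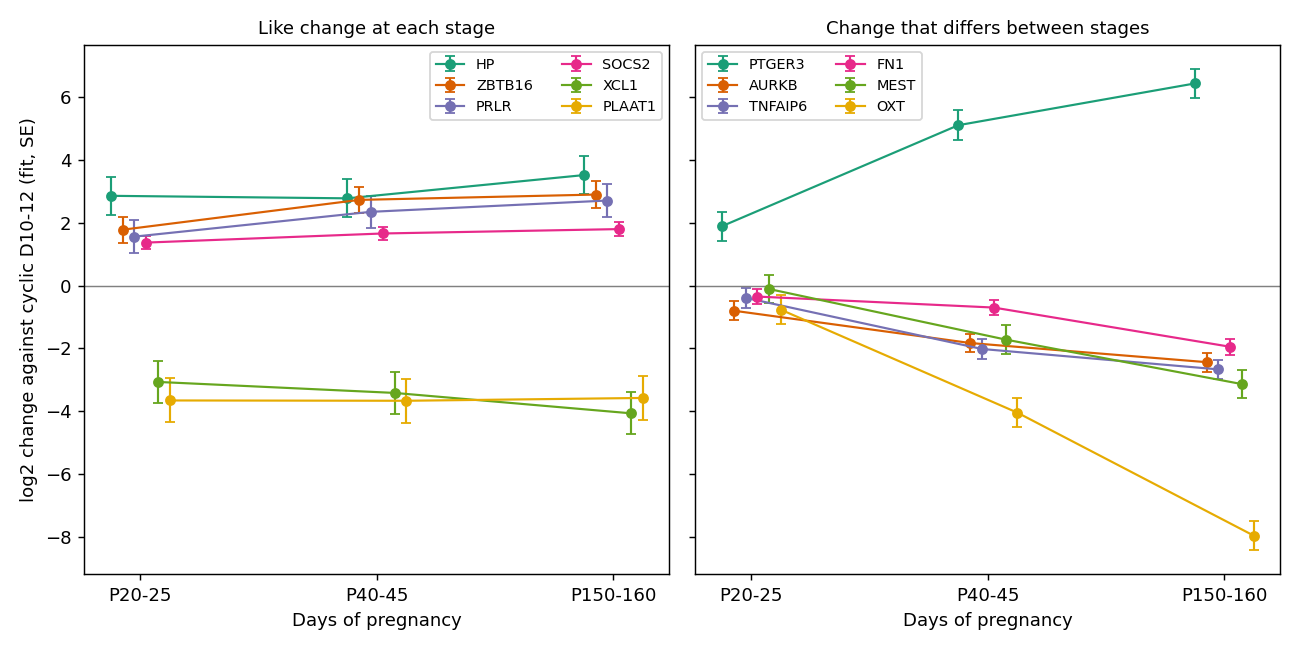
Log2 change against cyclic cows (vertical axis, fitted value with SE) on days 20-25, 40-45 and 150-160 of pregnancy (horizontal axis) for 6 genes that shifted alike (left) and 6 whose change differed between stages in the F test (right). The 3 points of HP stay between 2.78 and 3.52 and those of PLAAT1 between -3.67 and -3.58, while PTGER3 runs from 1.89 to 6.44 and OXT from -0.77 to -7.97.

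The slides gave a look at separate animals, since each held 2 cyclic and 6 pregnant cows of its own. Within slide 1 alone limma called 49 probes higher and 34 lower. In the cows of slide 2, 45 of the 49 and 32 of the 34 had the same sign, and 24 and 16 had an unadjusted p under 0.05 as well. Their median change was 1.93 on slide 1 and 0.85 on slide 2 for the higher, and -2.11 and -0.93 for the lower probes. Over all probes tested 54.2% had a positive change on slide 2. Within slide 2 the calls were 6 higher and 9 lower, and 6 and 8 of these had the same sign on slide 1. OXT and PTGER3 were called within both slides.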

How the data were processed

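Signals of 16 one-colour arrays were used, 4 per group. What the authors deposited per array is a linear intensity, the processed signal, background-subtracted by Agilent Feature Extraction 9.5, per the file headers and the submitters' processing notes. The value table deposited by the authors holds log2 values that equal the log2 signal minus a constant per array (largest departure 0.00461; column medians -3.18 to -2.98) and served as an alternative. Of 15208 probes, after removal of 536 control spots per array and of 220 flagged spots, 11940 were tested, being well above background on at least 3 of 4 arrays of a group. Values were log2 signal minus the array's 75th percentile. limma 3.58.1 in R 4.3.3 (lmFit, eBayes; group and slide; 11 residual degrees of freedom) gave all tests, two-sided, with Benjamini-Hochberg adjustment over all probes tested, called at 0.05. Names came from accessions, gene IDs, symbols and human genes in descriptions through RefSeq (ARS-UCD2.0), and 7100 probes had a symbol. A gene in a list was read by its brightest probe. Among called probes with separate groups, the 12 largest rises and falls and the 12 alike rises and falls of smallest adjusted p were named. Separate groups were thus a condition for these and not a result. Also named were up to 4 called members per list, 2 members of lists with none called, and luteal genes. All are described here as far as they carry a result. Some named genes are not reported here, though counts include them. The members and lists were chosen with earlier results of these data known. Alternatives were other scalings, filters, blocks, variance models and left-out arrays. The labels' protocols do not link same-numbered cows: deviations of same-numbered arrays correlated between 0.00 and 0.29.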

Additional observations from a re-analysis of the deposited data

Results flagged for a closer look

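An F test between the 3 stages within pregnancy, with adjustment over all probes, called 13 named genes. The adjusted p was 2.39e-05 for OXT, 0.000128 for CLDN10, 0.00115 for PTGER3, 0.00337 for CCL11 and 0.00709 for ESR2, an estrogen receptor that was not well above background on any pregnant array. It was 0.00827 for TNFAIP6, a hyaluronan-binding protein, 0.0138 for FN1, 0.0145 for MEST and 0.0155 for SERPINA1, a protease inhibitor. It was 0.0325 for PLA2G4A, 0.0332 for COL4A1, a basement membrane collagen, 0.0425 for AURKB and 0.0439 for ADAMTSL3. For ESR2 the F test compared only signals that were not well above background, so a difference between its stages is not measured. With values under background raised to it, the pooled change of ESR2 was -0.15 (adjusted p = 0.608 in limma).

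In 23 cases 1 of the 4 arrays of a group lay far from the other 3, by a gap to the nearest that took up most of the group's range. At the 95% critical value of Dixon's test that was used, chance singles out about 1 in 20 groups, and the 23 were 5.79% of the 397 groups examined. All values are log2 signal relative to the array's 75th percentile. Among the cyclic cows, replicate 1 stood high for AURKB at -1.09 and low for SERPINA1 at -9.39. Cyclic replicate 2 stood low for ADAMTSL3 at -3.70 and UQCR11 at 3.61. Cyclic replicate 3 stood low for ESR2 at -7.14 and high for SLC26A10 at -4.25, though still below the pregnant cows.

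On days 20-25, replicate 1 stood low for CATHL4 at -9.32, with all 4 arrays below background, and replicate 3 stood high for HP at -1.29 and low for IGF2 at -1.34. Replicate 4, the array that stood apart on the second principal component, was high for FN1 at 1.58, RPL38, a ribosomal protein, at 5.55 and UQCR11 at 3.69. On days 40-45, replicate 1 stood high for PTGER3 at -0.66, replicate 3 low for C7 at 2.04 and replicate 4 high for MEST at -1.93.

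On days 150-160, replicate 1 stood high for 4 genes, at -3.68 for AURKB, 2.40 for HLF, -1.91 for SLC26A10 and 0.31 for SLCO2A1. Replicate 3 stood low for DUSP1, a phosphatase, at 1.61 and for UPK1B, a uroplakin, at -2.99, and high for NPR2 at -1.11. Replicate 4 stood high for AQP7, a glycerol channel, at -6.37.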

How the results depend on the processing

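The pooled calls numbered 831 (518 higher, 313 lower), the alike calls 481 and the stage F calls 114. With the pregnancy arrays as 1 group the pooled calls were 476 (316 and 160). Within slide 1 they were 83 (49 and 34), with 46 alike and 1 by the F test; within slide 2 they were 15 (6 and 9), with 9 alike and 1 by the F test. Each slide fit has 4 residual degrees of freedom. Without days 150-160 they were 268 (179 and 89), without days 40-45 310 (226 and 84). Leaving out 1 array gave 306 to 938 pooled calls (201 to 551 higher, 105 to 387 lower), 186 to 554 alike and 39 to 165 by the F test. Both lowest pooled and alike counts came without cyclic replicate 4 and the lowest F count without replicate 1 of days 20-25. Alike calls were also 272 without cyclic replicate 2, and 307 and 317 without replicates 1 and 3 of days 40-45. A stricter ratio for alike left 241, and asking for a call at each stage 31. STAR and PTGFR turned to -0.32 and -0.06 within slide 2. With replicate number as a block, calls were 709 pooled, 416 alike and 85 by the F test; the numbers are not shown to pair cows, and 9 of 16 arrays correlated best with an array of their own number. Other scalings, filters and variance models kept the pooled count between 593 and 858. Of 81 called named genes 50 passed without any 1 array, and the rest reached at most an adjusted p of 0.18. With values under background raised to it 75 of the 81 passed, all but CATHL3, DEFB4A, ESR2, AQP7, PLA2G4A and HGF. The list counts per left-out array were added after seeing the data. The 4 cyclic cows set the precision, and dim probes give bounds only.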

Other observations

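A few genes of fatty acid handling and mitochondrial metabolism outside the lists are given here because they fell; they were chosen after their values were seen, form no list that was tested, and the mitochondrial enzyme ACSS1 rose. CD36, which takes up fatty acids, measured 0.19, 0.76, -1.09 and 0.42 in the cyclic cows and -3.21, -2.25 and -0.71 as lowest, median and highest of the pregnant cows. Cyclic replicate 3 lay inside the pregnant range. It fell by 2.24 (SE 0.36, adjusted p = 0.00465), or -2.72 and -1.77 within slides 1 and 2, and passed without any 1 array, with an adjusted p of at most 0.0229. FABP4, a fatty acid carrier, fell by 1.85 (adjusted p = 0.0449), with cyclic replicate 1 at 0.96 far above the other cyclic cows, and did not pass without it (adjusted p = 0.128). HADH and HADHB, enzymes of beta oxidation, fell by 0.41 (adjusted p = 0.0299) and 0.56 (adjusted p = 0.0461), and MDH2, of the citric acid cycle, by 0.47 (adjusted p = 0.017). Each of the last 3 lost its call when a cyclic array was left out (adjusted p = 0.119 and 0.0764 without replicate 4 for HADH and MDH2, and 0.107 without replicate 3 for HADHB).

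ASIP, the agouti signalling protein, was bright in 3 of the 4 cyclic cows, at -0.78, -0.73 and -0.87, and at -6.63 in replicate 2, while the pregnant cows lay between -7.42 and -5.69. It fell by 4.59 (SE 0.77, adjusted p = 0.00592). On 4 of the 12 pregnant arrays the ASIP probe was well above background, so the size of the fall is not fully measured. TYR, tyrosinase, fell by 2.05 (adjusted p = 0.0193), which became 0.0598 without cyclic replicate 4. PENK, proenkephalin, rose by 3.78 (adjusted p = 0.0172), with 2.31, 3.02 and 6.0 by stage, and did not pass without cyclic replicate 4 (adjusted p = 0.0611).

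The largest rise that shifted alike belonged to a probe without a gene symbol, and 444 of the 831 called probes had none. Probe ABR8800, designed on a complementary DNA clone, measured 0.33, -2.72, -2.19 and -1.90 in the cyclic cows and 3.72, 5.08 and 6.12 as lowest, median and highest of the pregnant cows. The change was 6.70 (SE 0.43, adjusted p = 5.91e-06), a 104-fold difference, with 7.16, 6.70 and 6.25 by stage, all called. Probe A_73_114100 rose by 3.07 (adjusted p = 0.0148), and probes A_73_121441 and A_73_119087 fell by 2.30 (adjusted p = 0.00458) and 2.14 (adjusted p = 0.0272). These 4 are the largest rises and falls without a symbol among called probes with separate groups.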
